A study of Mus musculus with 6 samples.

Results

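Collagen chains were compared between auditory nerves of mice labelled as knockouts of complement factor B and of wildtype mice. The chains were all genes whose symbol is Col, a type number, the letter a and a chain number, which gave 44 of the 17666 genes in the table. There were 3 samples from FactorB KO mice and 3 from wildtype mice, all young adults aged 1.5 to 2.5 months and named C57 in the labels. For each sample the nerves of both cochleas of a single mouse were dissected and pooled. The allele of the knockout, the sex of the mice and whether the wildtype mice were littermates are not given in the sources used here. Values are normalized counts, which are gene counts that were scaled per sample and rounded, so the number of reads behind each sample is unknown.

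Collagens are the main structural proteins of the extracellular matrix, and each molecule is a helix of 3 chains. Fibrillar collagens form the banded fibres that bear tension, type IV collagen forms the network of basement membranes around Schwann cells and vessels, and type VI collagen forms beaded filaments that link cells to the surrounding matrix. FACIT collagens, the fibril-associated ones, sit on the surface of fibrils, and further types are short-chain, anchoring, transmembrane or endostatin-bearing. In the inner ear, types II, IX and XI are known as components of the tectorial membrane and of cartilage, and type I as the main protein of bone.

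The starts of the 3 chains that build the common type VI molecule are shown because these chains were higher together in knockout-labelled libraries. The start of Col1a2 is shown because that chain had nearly equal means under both labels. The sequences are the 250 bases before an annotated start of each gene, from RefSeq on GRCm38.p6, read 5′ to 3′ on the gene's strand. The window of Col6a3 reaches into the span listed for that gene, which ends at 90844001. Capitals mark CCAAT and GGGCGG on either strand.
Col6a1 (chr10:76726045-76726294, minus strand): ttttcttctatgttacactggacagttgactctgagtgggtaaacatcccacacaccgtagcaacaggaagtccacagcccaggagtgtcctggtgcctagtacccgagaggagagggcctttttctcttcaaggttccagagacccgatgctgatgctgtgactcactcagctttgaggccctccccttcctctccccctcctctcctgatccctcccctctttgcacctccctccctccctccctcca
Col6a2 (chr10:76623631-76623880, minus strand): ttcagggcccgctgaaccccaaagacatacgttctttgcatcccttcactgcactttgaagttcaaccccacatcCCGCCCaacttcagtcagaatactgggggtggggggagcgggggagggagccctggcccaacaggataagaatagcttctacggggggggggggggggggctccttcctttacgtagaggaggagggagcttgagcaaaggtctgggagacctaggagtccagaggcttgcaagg
Col6a3 (chr1:90843972-90844221, minus strand): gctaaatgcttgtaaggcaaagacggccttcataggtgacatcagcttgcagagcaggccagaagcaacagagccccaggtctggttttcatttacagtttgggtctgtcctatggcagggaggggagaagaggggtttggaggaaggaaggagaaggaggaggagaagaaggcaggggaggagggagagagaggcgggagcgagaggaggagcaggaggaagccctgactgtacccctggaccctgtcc
Col1a2 (chr6:4505368-4505617, plus strand): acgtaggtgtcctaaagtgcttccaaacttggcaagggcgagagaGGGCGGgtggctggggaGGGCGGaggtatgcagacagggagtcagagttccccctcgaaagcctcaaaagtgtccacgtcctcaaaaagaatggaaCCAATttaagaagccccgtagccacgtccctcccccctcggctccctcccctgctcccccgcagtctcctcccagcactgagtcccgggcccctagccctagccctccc
Col1a2 held 1 CCAAT and 2 GGGCGG matches, Col6a2 held 1 GGGCGG match, and Col6a1 and Col6a3 held 0 of either. TATAAA, searched in the same way, was found in 0 of the 4 windows. Of 27025 gene starts of the same length, 34.5% held CCAAT, 33.0% held GGGCGG and 13.0% held TATAAA, counting both strands. Among the 35 collagen chains with a start in the table, these shares were 34.3%, 60.0% and 14.3%, and the median GC content was 59.2%, against 52.0% over all starts. A match is a stretch of letters, and binding was not measured.

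Directions are given between libraries as labelled, because Cfb, the targeted gene, went against the labels. Cfb had 336, 351 and 376 normalized counts in knockout-labelled libraries, against 55, 39 and 116 in wildtype-labelled ones. Its log2 difference was 2.47 (SE 0.38, adjusted p = 0.107 by limma). The authors' deposited table gave it a fold of 5.08, higher in knockout-labelled libraries, and a false discovery rate of 1.8e-06. Counts summed over a gene hold no position of a read within it. Column totals were 39599210 to 40918311 in knockout-labelled libraries and 38675077 to 41496282 in wildtype-labelled ones. The markers of the nerve were present in every library. The 7 Schwann cell markers summed to between 399689 and 491640 in knockout-labelled libraries and between 395175 and 722816 in wildtype-labelled ones, and the 8 spiral ganglion neuron markers to between 399939 and 482249 and between 290994 and 501753. Wildtype replicate 3 stood apart. Its 6 measured lateral wall markers summed to 893120, against at most 527175 in any other library, and its 5 red cell markers to 18992, against at most 6454 in any other library. It also held the lowest sums of Schwann cell markers, 395175, and of spiral ganglion neuron markers, 290994. Every other library had at least 399689 and 399939. The red cell markers also moved with the label: they summed to between 1632 and 2197 in knockout-labelled libraries and between 6390 and 18992 in wildtype-labelled ones. All 5 were below without overlap and called lower in the authors' deposited table, with a median log2 difference of -2.44, or -1.85 without wildtype replicate 3. Over all genes, 14.9% lay below without overlap, and 3.25% of those with a rate were called lower. The part of blood content in the collagen differences was not tested. In whole tissue, more cells of a type and more RNA per cell cannot be told apart.

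Among the 44 chains, 36 had a higher fitted level in knockout-labelled libraries and 8 a lower one, and the median log2 difference was 0.46. Over all 17666 genes 50.8% were higher, and the median was 0.01. No chain passed an adjusted p of 0.05 by limma, a rule that called 0.158% of all genes, 0.102% higher and 0.0566% lower. At an unadjusted p under 0.05, 14 chains were higher and 1 was lower, with 10.8% of all genes called higher and 9.2% called lower by that rule. In the authors' deposited table, 10 of the 40 chains with a false discovery rate were under 0.05, all 10 higher in knockout-labelled libraries. That was 25.0% of those chains, beside 7.39% of all genes with a rate, 4.14% called higher and 3.25% called lower. For 14 chains every library labelled knockout lay above every library labelled wildtype, which was 31.8% of the chains and 13.6% of all genes. For 1 chain every library labelled knockout lay below, as it did for 14.9% of all genes. Those called in the authors' deposited table ran from Col6a1 (1.54-fold) to Col12a1 (2.37-fold).

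**Figure D1:**
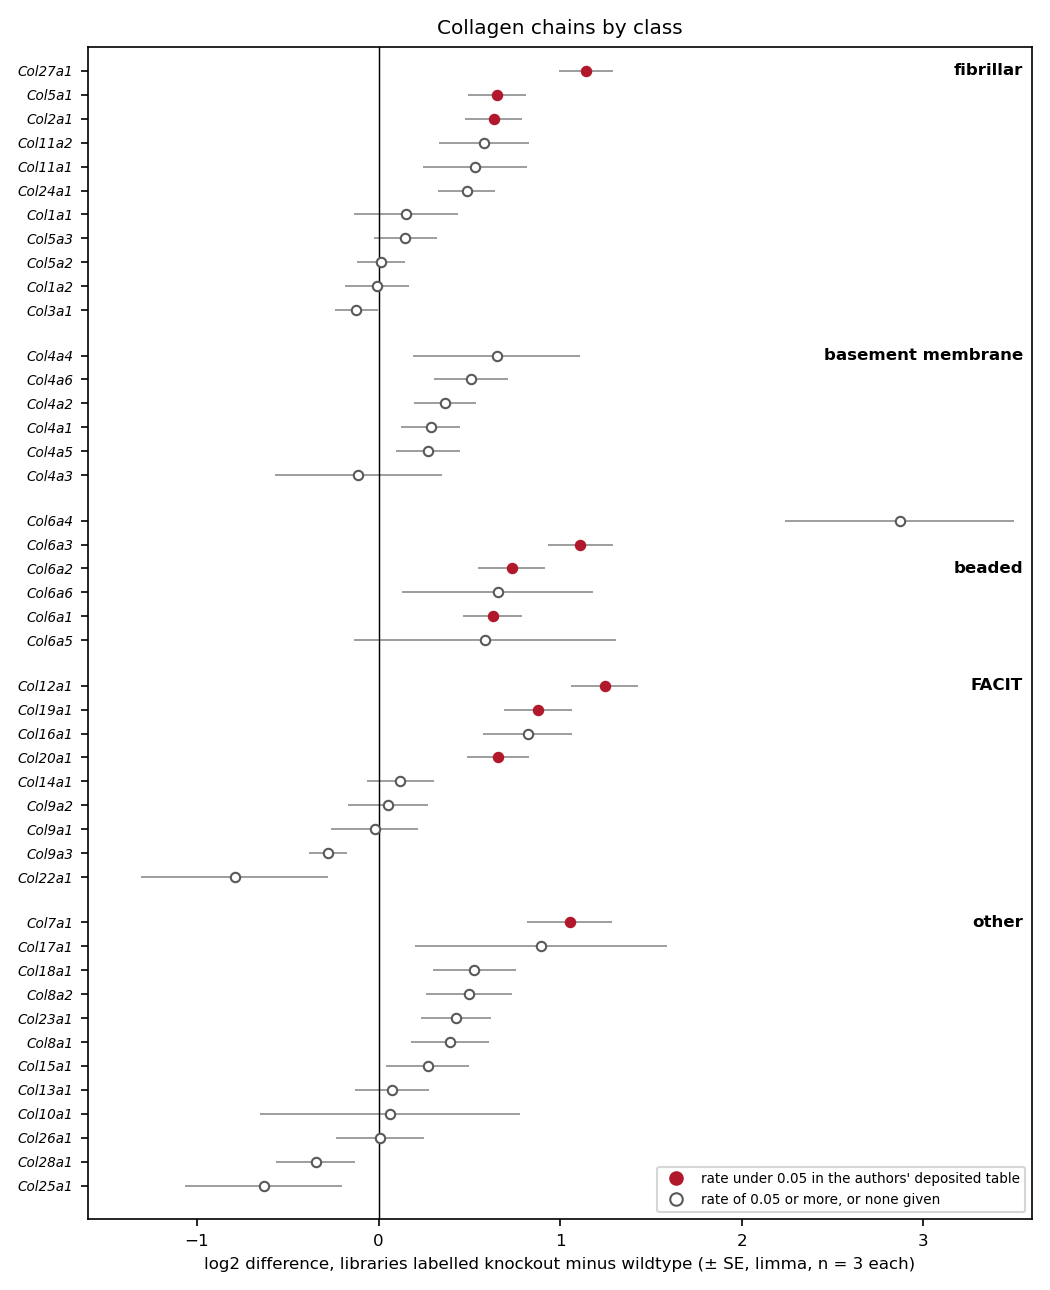
Log2 difference of each of the 44 collagen chains, libraries labelled knockout minus wildtype, with its standard error by limma (n = 3 each), grouped by class. The 10 filled points are the chains called in the authors' deposited table, all right of 0, and 36 of the 44 points lie right of 0.

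The number of calls by limma depended on single libraries. Without wildtype replicate 3, limma called 6 of the 44 chains, 13.6% of them, and all 6 were higher: Col11a2, Col12a1, Col18a1, Col20a1, Col27a1 and Col6a3. The same fit called 1.9% of all genes higher. Without wildtype replicate 1 it called Col16a1 and Col27a1, beside 0.408% of all genes called higher, and with libraries weighted by their spread it called Col12a1, Col27a1 and Col6a3, beside 0.464%. Without any 1 of the libraries labelled knockout, or without wildtype replicate 2, it called 0 chains, and these 4 fits called 0, 0, 0 and 1 of all 17666 genes. The median over the chains was 0.20 without wildtype replicate 2 and 0.50 without wildtype replicate 3.

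Type VI, the beaded class, had its 3 abundant chains higher in knockout-labelled libraries. Col6a1 (chromosome 10, 76708792 to 76726044, GRCm38) and Col6a2 (chromosome 10, 76595756 to 76623630) are neighbours, 85.2 kb apart, and Col6a3 (chromosome 1, 90766860 to 90844001) encodes the long chain that completes the molecule. Col6a1 had 4222, 3349 and 3356 normalized counts in knockout-labelled libraries, against 2860, 2147 and 2091 in wildtype-labelled ones. Col6a2 had 4212, 3261 and 3818 in knockout-labelled libraries, against 2714, 2412 and 1745 in wildtype-labelled ones. Col6a3 had 802, 680 and 692 in knockout-labelled libraries, against 366, 267 and 380 in wildtype-labelled ones. The groups did not overlap for any of the 3 chains, and replicate 1 held the highest library labelled knockout each time. The folds were 1.54 for Col6a1, 1.64 for Col6a2 and 2.15 for Col6a3. The log2 differences were 0.63 (SE 0.16, adjusted p = 0.162), 0.73 (SE 0.19, adjusted p = 0.162) and 1.11 (SE 0.18, adjusted p = 0.114) by limma. Without wildtype replicate 3, Col6a3 passed with an adjusted p of 0.0320, in a range of 0.0320 to 0.480 over the alternatives. The authors' deposited table gave them rates of 0.0281, 0.0209 and 1.35e-05.

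The other 3 chains of type VI, which in mice are close relatives of Col6a3 in 1 cluster on chromosome 9, were near the floor of the table. Col6a4 had 18, 10 and 14 normalized counts in knockout-labelled libraries, against 1, 3 and 0 in wildtype-labelled ones, and its log2 difference of 2.87 (SE 0.63, adjusted p = 0.158) was 1.23 with a pseudocount of 8. Col6a5 had 8, 2 and 5 against 7, 1 and 2, and Col6a6 had 21, 25 and 14 against 12, 6 and 23, and both overlapped between the labels. Exons of Col6a4 overlap those of Gm36993 and Gm47575 on the other strand by 127 and 76 bases. Those of Col6a6 overlap those of Gm38314 on the other strand by 63 bases. Of the 4 beaded chains with a rate in the authors' deposited table, 3 were called and Col6a6 was not.

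**Figure D2:**
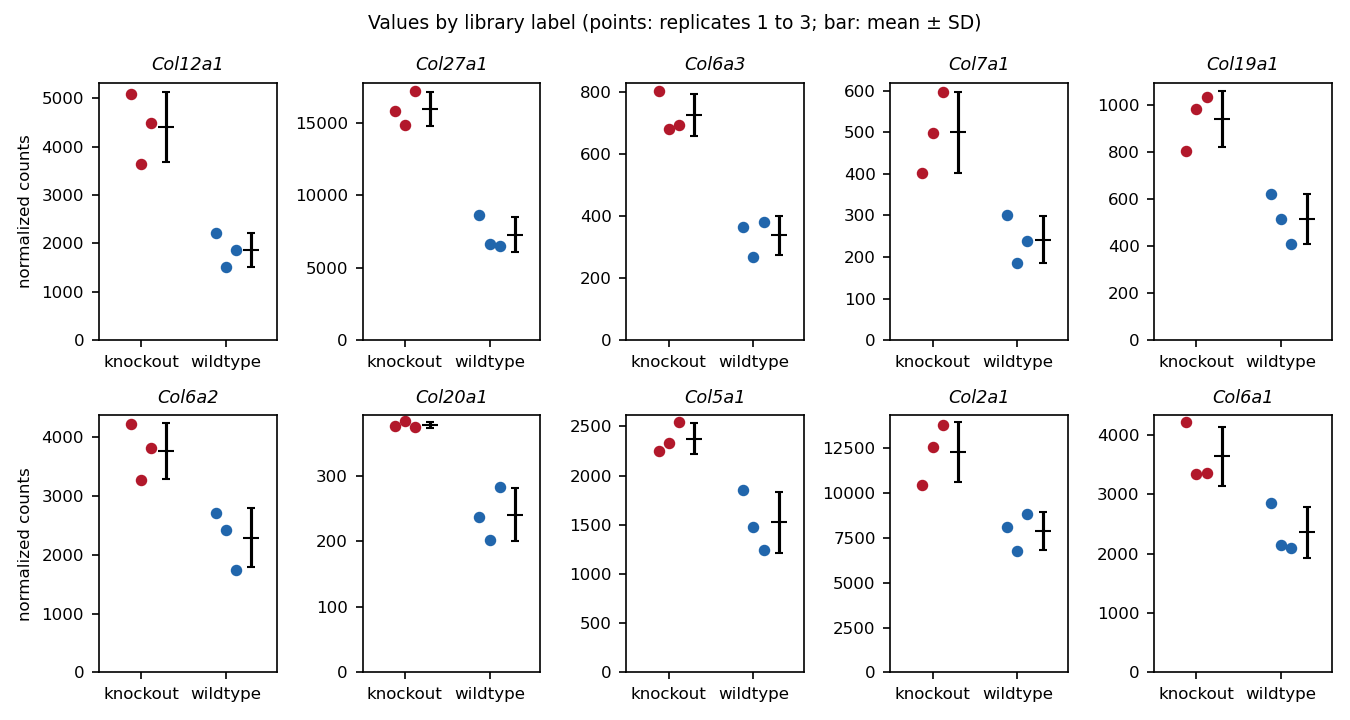
Normalized counts of the 10 chains called in the authors' deposited table, in each of the 3 libraries labelled knockout (left) and the 3 labelled wildtype (right), with the mean and SD. In all 10 panels the lowest library labelled knockout lies above the highest library labelled wildtype.

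Of the 11 fibrillar chains, 3 were called in the authors' deposited table, all higher, and the class median was 0.48. Col27a1 (chromosome 4, 63214009 to 63334991), a fibrillar collagen of cartilage and growth plate, had 15822, 14824 and 17174 normalized counts in knockout-labelled libraries, against 8651, 6633 and 6515 in wildtype-labelled ones. The libraries did not overlap, and the fold of the means was 2.19. Its log2 difference was 1.14 (SE 0.15), and its adjusted p of 0.0556 by limma was the lowest among the chains. It passed without wildtype replicate 3, without wildtype replicate 1 and with weighted libraries, at adjusted p = 0.0286, 0.0470 and 0.0224, in a range of 0.0224 to 0.369 over the alternatives.

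Col2a1, the chain of cartilage and tectorial membrane fibrils, had 10460, 12585 and 13795 normalized counts in knockout-labelled libraries, against 8098, 6760 and 8850 in wildtype-labelled ones, a fold of 1.55 (log2 difference 0.64, SE 0.16, adjusted p = 0.162). Col5a1, which starts the assembly of thin fibrils, had 2246, 2336 and 2547 in knockout-labelled libraries, against 1858, 1480 and 1245 in wildtype-labelled ones, a fold of 1.56 (log2 difference 0.65, SE 0.16, adjusted p = 0.162). Neither chain overlapped between the labels, and both were called in the authors' deposited table, at rates of 0.0119 and 0.0204. Col24a1, a minor fibrillar chain known from bone and cornea, had no overlap either, with 1406 ± 180 in knockout-labelled libraries and 1006 ± 149 in wildtype-labelled ones (SD, n = 3 each), and a rate of 0.0817 in the authors' deposited table.

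Col11a2, a partner of type II fibrils, was the most abundant chain per length. It had 6906 normalized counts per kb in knockout-labelled libraries and 4753 in wildtype-labelled ones, on average. Its counts were 39180, 38011 and 48115 in knockout-labelled libraries, against 24606, 21957 and 39672 in wildtype-labelled ones, so wildtype replicate 3 lay among the libraries labelled knockout. Its log2 difference was 0.58 (SE 0.25, adjusted p = 0.254), and without wildtype replicate 3 it was 0.84 (adjusted p = 0.0487, in a range of 0.0487 to 0.538 over the alternatives). Col11a2 lies 0.790 Mb from Cfb on chromosome 17, so a difference linked to the targeted locus and one of the genotype cannot be told apart. Col11a1, its partner on chromosome 3, had 6107 ± 656 in knockout-labelled libraries and 4444 ± 1699 in wildtype-labelled ones, and these overlapped.

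The chains of type I and type III, the main collagens of bone, nerve sheath and vessel wall, showed differences smaller than the spread between replicates. Col1a2 had 21521, 23833 and 25846 normalized counts in knockout-labelled libraries, against 28539, 24029 and 19592 in wildtype-labelled ones, a log2 difference of -0.01 (SE 0.18, adjusted p = 0.989). Col1a1 had 4269, 3776 and 5328 in knockout-labelled libraries, against 6189, 2848 and 3558 in wildtype-labelled ones, a log2 difference of 0.15 (SE 0.29, adjusted p = 0.802). Col3a1 had 5309, 4764 and 4328 in knockout-labelled libraries, against 5554, 4831 and 5270 in wildtype-labelled ones, a log2 difference of -0.12 (SE 0.12, adjusted p = 0.591). The ranges of all 3 chains overlapped. Col5a2 and Col5a3, the partners of Col5a1, had log2 differences of 0.01 (SE 0.13) and 0.15 (SE 0.17).

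Among the 9 FACIT chains the largest difference was in Col12a1 (chromosome 9, 79598987 to 79721141), which binds type I fibrils of tendon, sheath and bone surfaces. It had 5083, 3633 and 4495 normalized counts in knockout-labelled libraries, against 2216, 1503 and 1865 in wildtype-labelled ones. The groups lay far apart, with a fold of 2.37 and a log2 difference of 1.25 (SE 0.18, adjusted p = 0.0839). It passed by limma without wildtype replicate 3, at an adjusted p of 0.0391, and with weighted libraries at 0.0486, in a range of 0.0391 to 0.393 over the alternatives. Its rate was 2.03e-06 in the authors' deposited table. Col19a1, a FACIT chain known from neurons and from muscle development, had 805, 985 and 1035 in knockout-labelled libraries, against 623, 518 and 408 in wildtype-labelled ones, a fold of 1.82 with a rate of 0.00421 in the authors' deposited table. Col20a1 had 375, 383 and 374 in knockout-labelled libraries, against 237, 202 and 283 in wildtype-labelled ones, a fold of 1.57 with a rate of 0.0203 in the authors' deposited table. The 3 libraries labelled knockout held nearly the same value of Col20a1. Col16a1 had 3188, 3605 and 3630 in knockout-labelled libraries, against 2936, 1733 and 1484 in wildtype-labelled ones, and its rate of 0.0644 missed the threshold. Without wildtype replicate 1, the highest of its group, its log2 difference of 0.82 was 1.11 (adjusted p = 0.0470, in a range of 0.0470 to 0.485 over the alternatives).

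The chains of type IX, which decorate type II fibrils, lay apart from Col2a1. Col9a3 had 5244, 5417 and 5755 normalized counts in knockout-labelled libraries, against 6243, 6510 and 7150 in wildtype-labelled ones. It was the 1 chain whose libraries labelled knockout all lay below the others, with a fold of 0.825 and a log2 difference of -0.28 (SE 0.10, adjusted p = 0.217). Exons of Col9a3 overlap those of Tcfl5 on the other strand by 234 bases, and the strand setting of the counting is not given in the sources used here. Tcfl5 averaged 32.0 normalized counts over all libraries, and the part of the overlap was not tested. Col9a1 had 2395, 2378 and 2353 in knockout-labelled libraries, against 1952, 1970 and 3648 in wildtype-labelled ones. Col9a2 had 6711, 6721 and 6930 in knockout-labelled libraries, against 5529, 5340 and 9498 in wildtype-labelled ones. In both chains wildtype replicate 3 lay above and the other wildtype libraries below every library labelled knockout, and without that library the log2 differences of -0.02 and 0.05 were 0.28 and 0.32. Col14a1 averaged 3190 ± 76 in knockout-labelled libraries and 2996 ± 741 in wildtype-labelled ones (SD, n = 3 each). Col22a1, known from muscle-tendon junctions, had 70, 73 and 93 against 253, 58 and 170, which overlap.

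The 6 basement membrane chains had a median log2 difference of 0.33, and none was called by limma or in the authors' deposited table. Col4a1 and Col4a2, which form the common type IV molecule, had 4491, 5165 and 5542 and 3382, 3957 and 4100 normalized counts in knockout-labelled libraries, against 4543, 3330 and 4681 and 3217, 2314 and 3439 in wildtype-labelled ones. Both overlapped between the labels, with log2 differences of 0.29 (SE 0.16, adjusted p = 0.361) and 0.37 (SE 0.17, adjusted p = 0.283). Col4a6, whose chain is found in the basement membranes of epithelia and smooth muscle, was the 1 member without overlap, with 438, 361 and 428 in knockout-labelled libraries, against 314, 221 and 337 in wildtype-labelled ones (log2 difference 0.51, SE 0.20, adjusted p = 0.231). Col4a5, which lies beside Col4a6 on chromosome X, had 2136, 1933 and 2126 in knockout-labelled libraries, against 1574, 1417 and 2224 in wildtype-labelled ones, which overlapped (log2 difference 0.27, SE 0.18, adjusted p = 0.419). Without wildtype replicate 3 that difference was 0.47 (adjusted p = 0.0602, in a range of 0.0602 to 0.997 over the alternatives). Col4a3 and Col4a4, the chains of the basement membrane that is affected in Alport syndrome, were highest in wildtype replicate 3. Col4a3 had 923, 734 and 912 in knockout-labelled libraries, against 671, 562 and 2062 in wildtype-labelled ones. Col4a4 had 1066, 780 and 1199 in knockout-labelled libraries, against 536, 355 and 1352 in wildtype-labelled ones. Without wildtype replicate 3 their log2 differences of -0.11 and 0.65 were 0.47 and 1.19, with adjusted p = 0.103 and 0.0525. Over the alternatives these p-values ranged from 0.103 to 0.998 and from 0.0525 to 0.875.

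Of the 12 remaining chains, Col7a1 was called in the authors' deposited table, with a rate of 0.00383. Col7a1 (chromosome 9, 108953586 to 108984875) encodes the anchoring fibril that ties epithelial basement membrane to the tissue below. It had 403, 498 and 598 normalized counts in knockout-labelled libraries, against 300, 186 and 239 in wildtype-labelled ones, a fold of 2.07 without overlap (log2 difference 1.05, SE 0.23, adjusted p = 0.159). Col8a1 and Col8a2, the short chains of vessel wall and cornea, had 5338 ± 1044 and 1541 ± 289 in knockout-labelled libraries and 4080 ± 984 and 1111 ± 341 in wildtype-labelled ones (SD, n = 3 each), which overlapped. Of the multiplexins, which carry endostatin-like ends, Col18a1 had 1374, 1464 and 1177 in knockout-labelled libraries, against 849, 713 and 1305 in wildtype-labelled ones, and Col15a1 1284, 1809 and 1323 against 1645, 967 and 1101. Without wildtype replicate 3 the log2 difference of 0.53 of Col18a1 was 0.78 (adjusted p = 0.0455, in a range of 0.0455 to 0.565). Among the transmembrane chains, Col23a1 averaged 2750 ± 415 in knockout-labelled libraries and 2062 ± 454 in wildtype-labelled ones. Col13a1 averaged 244 ± 41 and 232 ± 34 and Col25a1 358 ± 93 and 620 ± 408, with 1089 of Col25a1 in wildtype replicate 3. The log2 difference of Col25a1 was -0.63, and -0.13 without that library. Col26a1 averaged 283 ± 18 in knockout-labelled libraries and 290 ± 86 in wildtype-labelled ones, and Col28a1, known from Schwann cell basement membranes, 220 ± 10 and 286 ± 77. Col10a1, the marker of hypertrophic cartilage, reached at most 3 normalized counts in knockout-labelled libraries and 6 in wildtype-labelled ones, and Col17a1 at most 8 and 6.

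Chains that share a molecule were compared as the ratio of 2 chains within each library, for 11 pairs. With 3 libraries against 3, the exact permutation test could not give a p below 0.1, and no pair passed after adjustment over the 11 pairs. The ratio did not overlap between the labels for 4 pairs, each at p = 0.1 (exact, two-sided; adjusted p = 0.275). Col5a1 over Col5a2 was 0.803 to 0.845 in knockout-labelled libraries and 0.420 to 0.602 in wildtype-labelled ones. Col6a3 over Col6a1 was 0.190 to 0.206 in knockout-labelled libraries and 0.124 to 0.182 in wildtype-labelled ones. Col4a3 over Col4a4 was 0.761 to 0.941 in knockout-labelled libraries and 1.25 to 1.58 in wildtype-labelled ones. Exons of Col4a3 overlap those of C430014B12Rik on the other strand by 274 bases. Col4a1 over Col4a2 was 1.31 to 1.35 in knockout-labelled libraries and 1.36 to 1.44 in wildtype-labelled ones. On the log2 scale the differences between the labels were 0.64, 0.48, -0.76 and -0.08. The remaining type IV pair overlapped: Col4a5 over Col4a6 was 4.88 to 5.35 in knockout-labelled libraries and 5.01 to 6.60 in wildtype-labelled ones (p = 0.2, exact). The gene spans of Col4a1 and Col4a2 start head to head on chromosome 8 and overlap by 85 bases, and their exons overlap by 22 bases. The gene spans of Col4a3 and Col4a4 on chromosome 1 also overlap. Col6a1 over Col6a2 was 0.879 to 1.03 in knockout-labelled libraries and 0.890 to 1.20 in wildtype-labelled ones, a log2 difference of -0.10 (p = 0.4, exact).

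**Figure D3:**
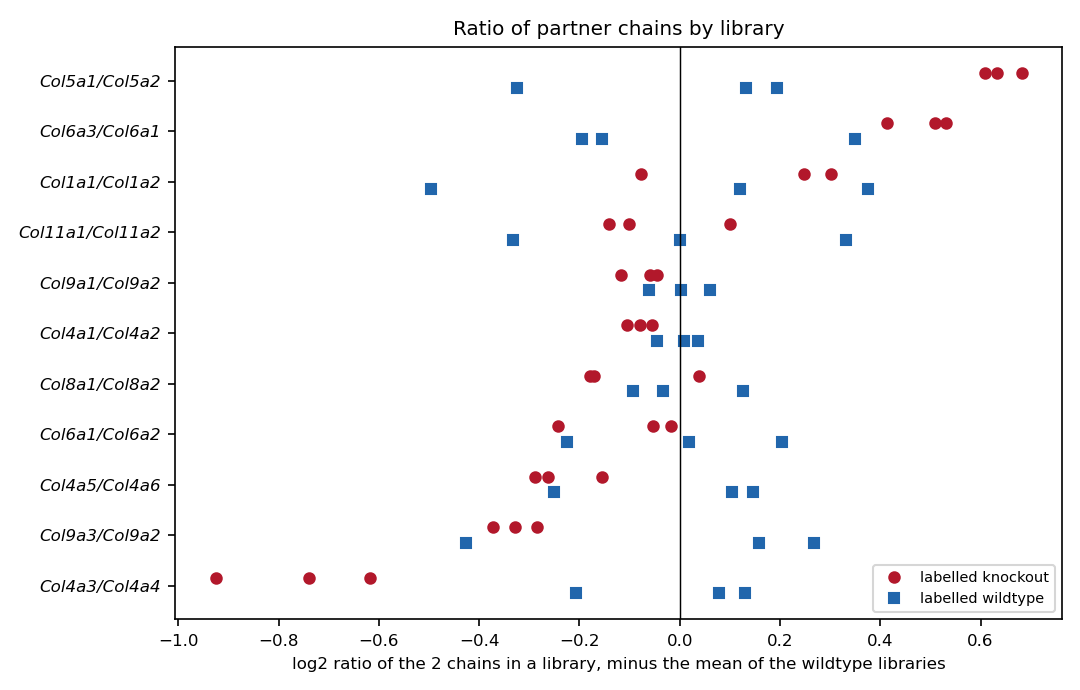
Log2 ratio of 2 partner chains in each library, minus the mean over the wildtype libraries, for 11 pairs, with libraries labelled knockout as circles and wildtype-labelled ones as squares. The circles lie clear of the squares for Col5a1/Col5a2, Col6a3/Col6a1, Col4a1/Col4a2 and Col4a3/Col4a4.

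Collagen transcripts are long, and length moved with the label over all genes. The longest transcript of a chain was between 2781 and 11511 bases, with a median of 5989, against a median of 2964 over the 17475 genes with a length. Among all genes of at least 6000 bases the median log2 difference was 0.35, and among the 22 chains of that length it was 0.52. Among all genes of 4000 to 6000 bases it was 0.13, and among the 16 chains of that length 0.51. The 6 shorter chains had a median of 0.03, against -0.02 over all genes of 2000 to 4000 bases. With the trend on length removed in each library, the median over the 44 chains was 0.17, against -0.01 over all genes, and 32 chains were above 0. By class, the median was then 0.17 over the fibrillar chains, where it had been 0.48, and 0.054 over the basement membrane chains, where it had been 0.33. It was 0.57 over the beaded chains, 0.065 over the FACIT chains and 0.16 over the remaining ones, where it had been 0.70, 0.12 and 0.33. Col4a1 and Col4a5 were then at 0.0085 and 0.0014. By limma 11 chains were then higher and 4 lower at an unadjusted p under 0.05, where 7.09% of all genes were higher. In either direction, 2590 of 17475 genes were under 0.05 in that fit. The 10 chains called in the authors' deposited table stayed above 0, and none passed an adjusted p of 0.05. Col27a1 had a log2 difference of 0.80 in that fit (adjusted p = 0.138), Col19a1 0.78, Col12a1 0.70, Col6a3 0.63 and Col7a1 0.62. Col6a2 had 0.60, Col6a1 0.54, Col20a1 0.50, Col2a1 0.47 and Col5a1 0.27 (adjusted p = 0.462). The difference in ratio was then 0.09 for Col6a3 over Col6a1, whose transcripts have 10106 and 4100 bases, 0.53 for Col5a1 over Col5a2, and -0.68 for Col4a3 over Col4a4.

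**Figure D4:**
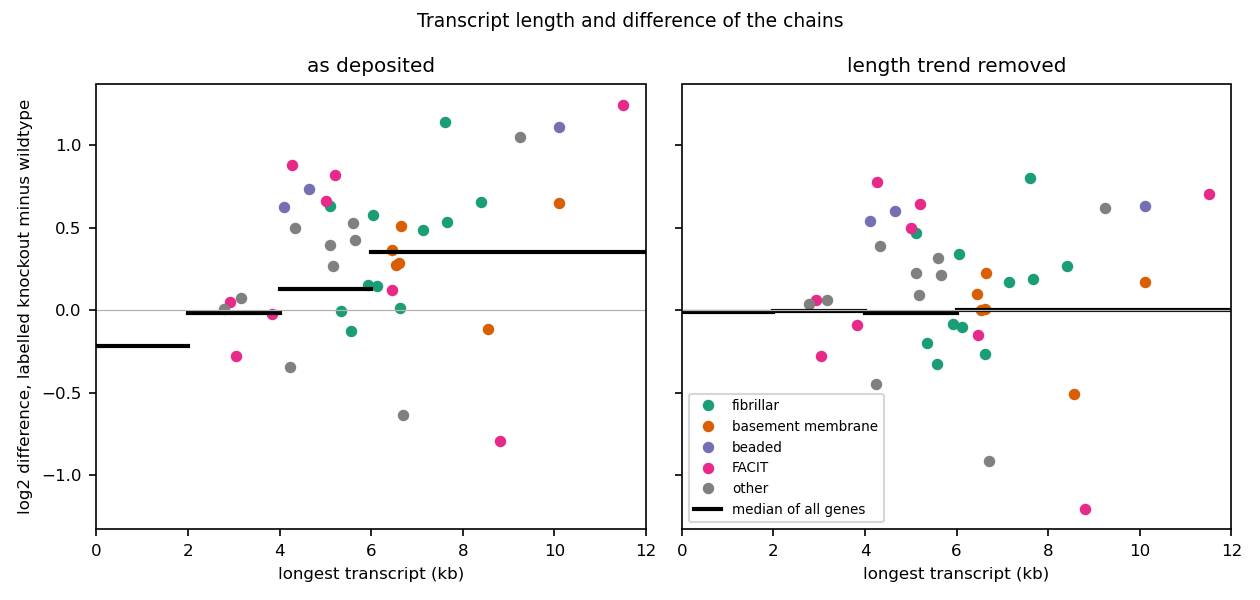
Log2 difference, libraries labelled knockout minus wildtype, against the longest transcript in kb for the 39 chains with a mean of at least 50 normalized counts, as deposited (left) and with the length trend removed (right). Black lines are medians of all genes in 4 ranges of length, the last of which has no upper end; as deposited they climb with length to 0.35, and after removal they lie near 0.

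Per length, type I, II, IX and XI chains made up most collagen transcripts under both labels. Summed over the chains, normalized counts per kb were 31374, 30846 and 34823 in knockout-labelled libraries, against 26941, 22392 and 29053 in wildtype-labelled ones, and these did not overlap. Fibrillar chains held 59.6% ± 1.9 of that sum in knockout-labelled libraries and 56.9% ± 1.7 in wildtype-labelled ones (SD, n = 3 each). FACIT chains held 20.4% ± 0.87 and 24.3% ± 2.0, and their ranges of 19.5% to 21.2% and 22.3% to 26.3% were apart. Their summed level itself overlapped, with 6454, 6529 and 6776 normalized counts per kb in knockout-labelled libraries against 6002, 5454 and 7638 in wildtype-labelled ones. Beaded chains held 5.50% ± 0.82 in knockout-labelled libraries and 4.29% ± 0.96 in wildtype-labelled ones, and their ranges of 4.92% to 6.44% and 3.19% to 4.90% were also apart. The length trend was not removed from these shares. Basement membrane chains held 5.98% ± 0.21 and 6.09% ± 0.75, and the remaining chains 8.51% ± 0.86 and 8.39% ± 0.11. Per kb, Col11a2 had the highest mean over all libraries, followed in order by Col1a2, Col9a2, Col9a3, Col2a1 and Col27a1.

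Genes that make, trim, bind and degrade collagen were read as 4 lists of 64 measured genes. By limma over all genes none passed, and at an unadjusted p below 0.05 there were 10 higher and 5 lower, where 10.8% of all genes were higher and 9.2% lower. Of the 64 genes 3, or 4.69%, were higher and 2 lower in the authors' deposited table. The share higher was near the 4.14% of all genes, and 3.25% of all genes were called lower. The median over the 64 genes was 0.04, or 0.13 without wildtype replicate 3. The 23 genes of assembly and folding had a median of -0.12, which turned to 0.03 without wildtype replicate 3, and no member called in the authors' deposited table. P4hb, a subunit of prolyl hydroxylase, had 10346, 9814 and 10638 normalized counts in knockout-labelled libraries, against 9524, 10896 and 13366 in wildtype-labelled ones. Serpinh1, the chaperone of procollagen, had 5779, 6257 and 6058 in knockout-labelled libraries, against 6954, 7697 and 6158 in wildtype-labelled ones. Both overlapped. Without wildtype replicate 3 the log2 difference of P4hb, -0.12, was 0.01, and that of Serpinh1, -0.20, was -0.28. Without wildtype replicate 3, limma called Creb3l1, a transcription factor of secretory cells (log2 difference 0.77, adjusted p = 0.0462), and Mmp8 among the 64 genes, beside 419 of all 17666 genes.

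Among the 15 genes of processing and crosslinking, Sparc and Pxdn were called in the authors' deposited table. Sparc, a collagen-binding chaperone rich in bone, had 32352, 40052 and 32803 normalized counts in knockout-labelled libraries, against 46001, 56931 and 115631 in wildtype-labelled ones, a log2 difference of -0.94 (SE 0.34, adjusted p = 0.206) that was -0.55 without wildtype replicate 3. Pxdn, the peroxidase that crosslinks type IV collagen, had 877, 941 and 881 in knockout-labelled libraries, against 669, 534 and 537 in wildtype-labelled ones, a fold of 1.55 with a rate of 0.00352 in the authors' deposited table. With the length trend removed its log2 difference of 0.64 was 0.36. Of the 13 receptor genes, Mrc2 and Itga11 were called in the authors' deposited table, both higher. Mrc2, which takes up collagen into cells, had 11716, 8772 and 12088 in knockout-labelled libraries, against 6600, 5545 and 7982 in wildtype-labelled ones. Itga11, an integrin chain that binds fibrillar collagen, had 606, 466 and 478 in knockout-labelled libraries, against 385, 259 and 205 in wildtype-labelled ones. Neither overlapped, with folds of 1.62 and 1.83, and the list median was 0.36, or 0.18 with the length trend removed. Among the 13 degradation genes, Mmp8, a collagenase of neutrophils, had 7, 12 and 6 in knockout-labelled libraries, against 45, 43 and 118 in wildtype-labelled ones.

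**Figure D5:**
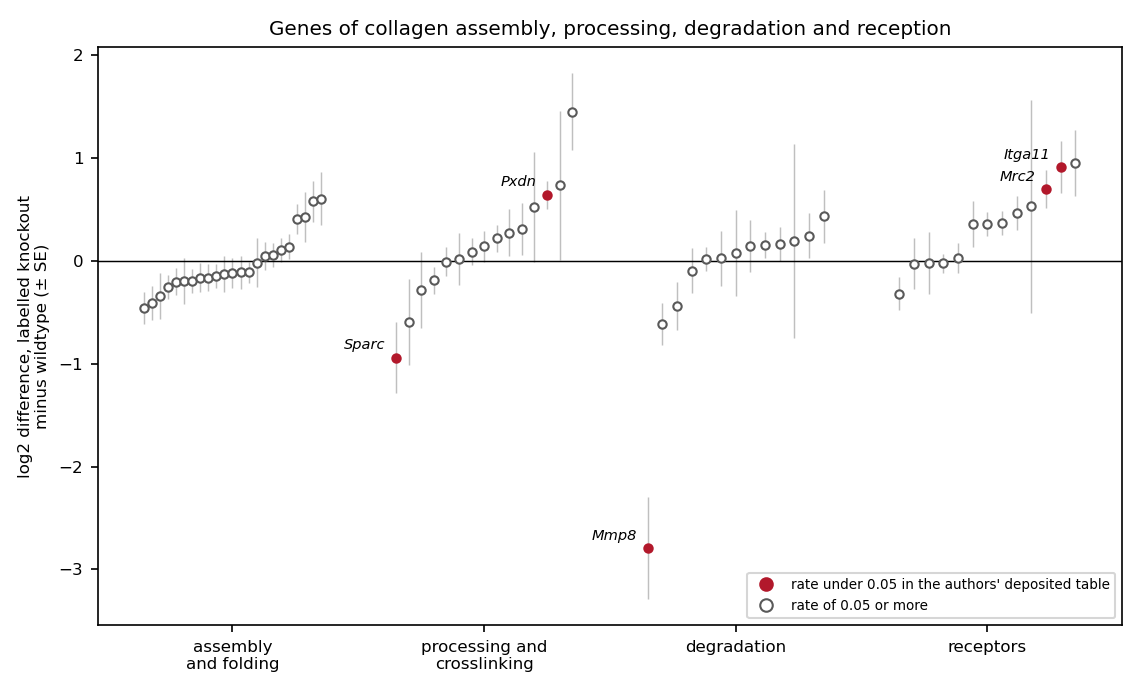
Log2 difference, libraries labelled knockout minus wildtype, with its standard error by limma (n = 3 each), for the 64 genes of 4 collagen-related lists. The 5 filled points are those called in the authors' deposited table: Pxdn, Mrc2 and Itga11 above 0, Sparc and Mmp8 below.

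Markers of tissues that carry these collagens moved with the label in part. The 9 markers of the organ of Corti and tectorial membrane were all above 0, with a median log2 difference of 1.33, or 1.87 without wildtype replicate 3. They summed to 58012, 48908 and 43078 in knockout-labelled libraries, against 21700, 22293 and 54062 in wildtype-labelled ones. Of the 9, 7 overlapped between the labels and 2, or 22.2%, lay above without overlap, beside 13.6% of all genes. Tecta had 866, 1611 and 84 in knockout-labelled libraries, against 86, 63 and 64 in wildtype-labelled ones. Otog had 12530, 15071 and 4781 against 1957, 1811 and 5163. The part of these 9 markers in the differences of Col2a1, Col11a2 and Col27a1 was not tested. Of 6 cartilage markers 3 were above 0, with sums of 21866 to 26157 in knockout-labelled libraries and 17737 to 31135 in wildtype-labelled ones, and 1, Acan, was called higher in the authors' deposited table. Their median was -0.08, and 0.30 without wildtype replicate 3, which held the sum of 31135. The 8 bone markers had a median of 0.09, or 0.26 without wildtype replicate 3, and 5 of them were above 0. Their sums were 8166 to 11905 in knockout-labelled libraries and 7697 to 15073 in wildtype-labelled ones, with 15073 in wildtype replicate 3. Bglap had 124, 134 and 234 in knockout-labelled libraries, against 947, 403 and 780 in wildtype-labelled ones (log2 difference -2.08). Ibsp had 442, 629 and 827 against 1207, 913 and 2151 (log2 difference -1.12), and neither overlapped. Of the 8 bone markers, 2 were called lower in the authors' deposited table. Over all genes with a rate, that table called 4.14% higher and 3.25% lower. The 7 fibroblast markers had a median of -0.06, with sums of 35877 to 48606 in knockout-labelled libraries and 49329 to 50747 in wildtype-labelled ones, which do not overlap. Pi16, a marker of adventitial fibroblasts, had 223, 218 and 193 in knockout-labelled libraries, against 46, 57 and 40 in wildtype-labelled ones, and was the 1 gene of the collagen-related and marker lists that passed by limma (log2 difference 2.14, SE 0.22, adjusted p = 0.0297). It was not called without any 1 of the libraries labelled knockout, where 0 genes were. Of the fibroblast markers, 1 was called higher and 1 lower in the authors' deposited table. Lum had 2744, 1931 and 1967 in knockout-labelled libraries, against 3753, 3356 and 5290 in wildtype-labelled ones, without overlap. Its log2 difference was -0.89 (SE 0.21, adjusted p = 0.162 by limma). Dcn, the most abundant of the fibroblast markers, averaged 27078 ± 5408 in knockout-labelled libraries and 35866 ± 1799 in wildtype-labelled ones (SD, n = 3 each). Of the 6 endothelial markers 5, and of the 5 mural markers 4, were above 0, with medians of 0.41 and 0.63. Their sums were 11597 to 14281 and 20739 to 24914 in knockout-labelled libraries and 10329 to 11911 and 17666 to 23728 in wildtype-labelled ones. No marker was listed at 0 in any library, and the part of these tissues in the differences of the chains was not tested.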

How the data were processed

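RNA sequencing measured 6 auditory nerve samples. Per the labels' protocols, RNA was purified with the miRNeasy kit and libraries were made with the TruSeq kit. Per the submitters' processing notes, the authors used TopHat2, DESeq2 and Partek and mm10 was the genome build; no roles or versions are stated. The annotation, filters, strand setting and read depth are not given in the sources used here, so no counting interval could be set. The deposited expression values are treated as a score: counts per gene that the authors scaled by library and rounded to whole numbers. That reading rests on median-of-ratios factors of 1.0038 to 1.0068 in the columns. The authors also deposited a fold change with a sign and a false discovery rate (an adjusted p-value); 2061 genes have no rate. There were 0 unused columns of sample values.

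Values were analysed as log2(value + 1) for genes with a mean of at least 1. Limma 3.58.1 in R 4.3.3 fitted the label over all 17666 genes, with eBayes, a trend on the mean and Benjamini-Hochberg adjustment at 0.05, after a test on simulated data. Log2 differences on this scale understate the change of low genes. Lengths are those of the longest GENCODE M21 basic transcript, and 17475 genes had one. Exons of 13 of the 44 chains overlap another annotated gene, which for 4 chains is a gene of the table. Among chains called in the authors' deposited table, Col5a1 overlaps 2810430I11Rik and Gm13372 on the other strand by 99 and 113 bases. Col20a1 overlaps BX649560.1 by 79 bases and Col7a1 overlaps Mir711 by 36 bases, both on the same strand. The part of these overlaps was not tested. Members and lists were chosen with earlier results of these data known. Named by rule were chains called in the authors' deposited table and the 2 most abundant per class. In each list, the rule named up to 4 called genes or the 2 most abundant. All other chains are named to account for each member. Creb3l1, Acan, Pi16, Lum, Bglap, Ibsp, Tecta and Otog were chosen after their values were seen. The 6 samples come from separate mice. The alternatives were other pseudocounts, filters, scalings, no trend, weighted libraries, a replicate block, removal of the length trend and leaving out each library.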

Additional observations from a re-analysis of the deposited data

How the results depend on the processing

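In 16 alternative fits no chain that was called by limma lost its call, since none was called at the start. With libraries weighted by spread, 3 chains and 111 genes were called, without a trend 16 genes, and with the replicate number as a block 0 chains and 7 genes. Same-numbered samples had deviations from the mean of their label that correlated at -0.049, 0.056 and 0.105. The labels state no pairing or batch, and with 3 samples per label these correlations cannot show whether one was shared. Leaving out 1 library gave 0 to 6 chains, 0 to 2 pathway genes and 0 to 419 genes, where all libraries gave 0, 0 and 28, and a median over the chains of 0.20 to 0.50. With the length trend removed that median was 0.17. The other fits changed none of these counts by over 1.5 times. Of 699 values of single chains under the alternatives, 655 kept direction and call, 11 passed the threshold and 33 changed sign. With weighted libraries these were Col4a3 (0.24), Col13a1 (-0.021), Col9a1 (0.17) and Col26a1 (-0.16); with the length trend removed Col5a3 (-0.10), Col14a1 (-0.15), Col1a1 (-0.080) and Col5a2 (-0.27); with quantile normalization Col26a1 (-0.045), Col10a1 (-0.067) and Col5a2 (-0.0050); and with a pseudocount of 8 Col10a1 (-0.019). Leaving out 1 library, the log2 differences ran from -0.24 to 0.67 for Col10a1, -0.045 to 0.21 for Col13a1, -0.077 to 0.29 for Col14a1, -0.089 to 0.47 for Col1a1, -0.15 to 0.13 for Col1a2, -0.24 to 0.21 for Col26a1 and -0.47 to 0.47 for Col4a3. They ran from -0.10 to 0.10 for Col5a2, -0.0017 to 0.29 for Col5a3, -0.17 to 0.28 for Col9a1 and -0.095 to 0.32 for Col9a2. The difference in log2 ratio ran from -0.21 to 0.12 for Col11a1 over Col11a2 and from -0.090 to 0.35 for Col1a1 over Col1a2. The cause of these changes was not tested. With 1 library left out, the exact test of a ratio could not give a p below 0.2.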
